A study of Mus musculus with 6 samples.

Results

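Actin is the protein from which cells build filaments, and the mouse makes it from 6 genes that are known as the actin isoforms. All 6 were described here, chosen by symbol from the 23284 genes counted in the series: the cytoplasmic isoforms Actb and Actg1, and the muscle isoforms Actg2, Acta2, Acta1 and Actc1. The family was picked with the difference between Lsd1 KO and Control libraries already known, so the levels of its members in that contrast are given as a description, with no p-value. No member of the family was dropped, and 3 of the 6 (Actb, Actg1 and Actg2) passed the filter on low counts. Acta1, Acta2 and Actc1 did not, and are described from their counts alone.

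The libraries hold RNA from fully grown germinal vesicle (GV) oocytes of the mouse, which wait in meiotic prophase before maturation. Of the 2 groups, 3 libraries came from oocytes with the genotype Lsd1 KO and 3 from oocytes with the genotype Control, all on a mixed C57BL/6-129 background. The gene called Lsd1 is listed in the files as Kdm1a and encodes a histone lysine demethylase. Females of both groups were 4 to 6 weeks old and had received 5 IU of gonadotrophin from pregnant mare serum 48 hours earlier, and each sample pooled 100 oocytes that were lysed together. The labels do not say how Lsd1 was deleted, in which cells, or whether the Control females carried any part of the same alleles. Because oocytes were pooled, a change in the number of oocytes that hold a transcript and a change in its level per oocyte cannot be told apart.

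Cytoplasmic actins are made in nearly every cell and form the cortex and the motile networks, whereas each muscle isoform is the main filament protein of a muscle type: Acta1 of skeletal muscle, Actc1 of heart, Acta2 of vascular smooth muscle and Actg2 of visceral smooth muscle. In the mouse oocyte, actin filaments move the spindle to the cortex and drive polar body extrusion. Free actin monomers bind the cofactors of serum response factor (SRF), and SRF binds a short AT-rich element, the CArG box, near the start of many actin and muscle genes.

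The isoform proteins are nearly identical, and they differ most at their amino-terminal ends. The first 60 coding bases are shown because they hold that end and because counts of the isoforms can be kept apart only where their sequences differ. They are from GENCODE release M1 on mm9, 5′ to 3′, and capitals mark bases that differ from, or are absent in, the aligned coding sequence of Actg2.
Actg2 (chr6:83477376-83477435, minus strand): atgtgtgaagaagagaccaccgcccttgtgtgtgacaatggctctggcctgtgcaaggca
Acta2 (chr19:34326984-34327043, minus strand): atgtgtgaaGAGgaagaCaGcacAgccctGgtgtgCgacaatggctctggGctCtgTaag
Acta1 (chr8:126417538-126417597, minus strand): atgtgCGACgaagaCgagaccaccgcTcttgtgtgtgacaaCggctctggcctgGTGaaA
Actc1 (chr2:113877708-113877767, minus strand): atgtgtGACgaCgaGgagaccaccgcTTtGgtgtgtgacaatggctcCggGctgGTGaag
Actb (chr5:143667306-143667365, minus strand): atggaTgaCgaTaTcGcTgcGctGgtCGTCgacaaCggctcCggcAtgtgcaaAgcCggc
Actg1 (chr11:120209346-120209405, minus strand): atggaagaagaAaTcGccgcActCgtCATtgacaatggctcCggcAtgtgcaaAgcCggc

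Each stretch lies in 1 exon, the first coding exon of its gene. Over the whole coding sequence, identity was 88.7% between the cytoplasmic pair, 82.5% to 86.2% among the muscle isoforms and 81.5% to 84.8% between a muscle and a cytoplasmic isoform. To see where reads could be placed, every 50-base and 100-base window of the main coding transcript of each isoform was searched for exact copies elsewhere in the mm9 genome. For Actg2, 0 of 1284 windows of 50 bases and 0 of 1234 windows of 100 bases had a copy, and for Actc1 there was none either. Acta2 and Acta1 had copies of 0.404% and 2.22% of their 50-base windows and of no 100-base window. Actb had copies of 15.4% and 1.1%, the largest part of them at 1 place on chromosome 16.

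Actg1 stood apart from the other 5: copies were found for 96.7% of its 50-base windows and 92.9% of its 100-base windows. A single place on chromosome 4, where the annotation holds a pseudogene (Gm12715), carried 89.3% of the 50-base windows, and a second on chromosome 13 carried 66.3%. The windows were taken from the spliced transcript, so they include those that cross an exon junction. Reads from most of Actg1 therefore had at least 1 exact match elsewhere in the genome. The labels do not say how such reads were counted, so the level of Actg1 is uncertain. They do not give the read length either, and copies with mismatches were not searched.

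**Figure D1:**
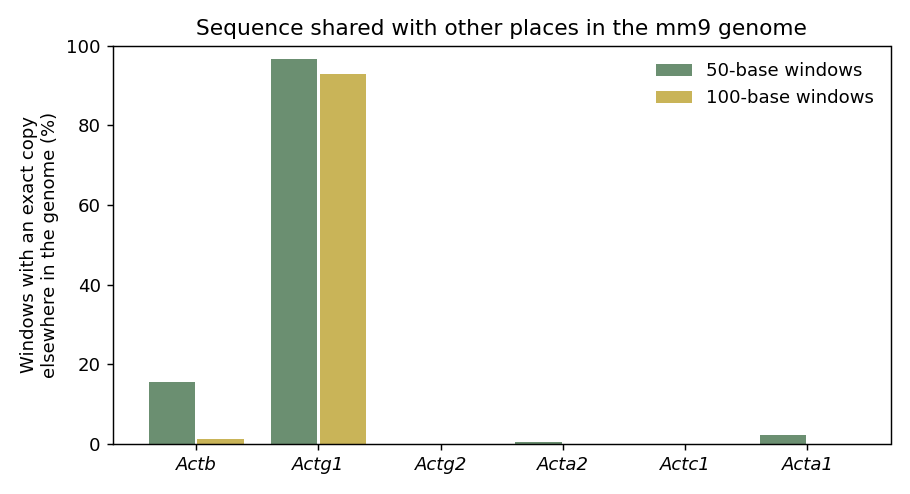
Share (%) of windows of the main coding transcript of each actin isoform that have an exact copy elsewhere in the mm9 genome, for windows of 50 and 100 bases. Actg1 reaches 96.7% and 92.9%, Actb 15.4% and 1.1%, and Actg2 none.

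Total counts ran from 10735422 to 13035045 per library, and the counting error of the abundant isoforms was small beside the spread between libraries. Kdm1a, the deleted gene, had 31 to 47 counts in Lsd1 KO, against 492 to 962 counts in Control, and each library matched its label. All 16 oocyte markers were detected, at a summed level of 36179 to 40727 CPM in Lsd1 KO, against 26085 to 31247 CPM in Control. Most of that gap was Gdf9, at 15558 ± 1264 CPM in Lsd1 KO, against 6057 ± 830 CPM in Control (SD). Levels are counts scaled to a common library total (CPM) after TMM normalization and fold changes are log2 of Lsd1 KO over Control, with the standard error (SE) of edgeR's fit. Across the 12935 genes tested, 21.3% passed an adjusted p of 0.05 by edgeR's quasi-likelihood test, 11% as higher and 10.3% as lower in Lsd1 KO, and the median log2 fold change was -0.013. Of the 16 oocyte markers, 2 were higher and 2 lower by that rule (25% called), with a median log2 fold change of -0.19. The same rule counts 1 of the 3 isoforms past the filter (Actg2) as higher and none as lower, and since this contrast chose the family nothing is read from that count.

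Actg2, the actin of visceral smooth muscle, was the isoform that set the groups apart. It lies on mm9 chromosome 6 from 83462899 to 83486259 on the minus strand, and the annotation places no other gene over it. Its counts were 587, 453 and 754 in Lsd1 KO replicates 1 to 3, against 3, 24 and 11 in Control replicates 1 to 3. On the CPM scale these were 47.1, 40.9 and 67.7 in Lsd1 KO against 0.277, 1.81 and 0.994 in Control. The groups did not overlap, as in 38.7% of all genes tested (19.5% with Lsd1 KO higher and 19.1% with Lsd1 KO lower). The lowest Lsd1 KO library was 22.6 times the highest Control library. The means were 51.9 ± 14.0 CPM in Lsd1 KO, against 1.03 ± 0.766 CPM in Control (SD, n = 3 each), 50.5-fold apart, and the fitted log2 fold change was 5.60 ± 0.43 (SE). Of the other genes tested, 8 had a larger log2 fold change.

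The highest Actg2 level was 1.66 times the lowest in Lsd1 KO and 6.52 times in Control, where Control replicate 1 held only 3 counts. Counting error is large in a ratio of so few counts. The SD in CPM went the other way, at 14.0 in Lsd1 KO and 0.766 in Control. In rank by CPM among all genes in the files, Actg2 stood 3993rd, 4440th and 3019th in Lsd1 KO, against 14144th, 11277th and 12175th in Control. Its log2 fold change lay between 5.15 and 6.33 with any single library left out, and it was 6.33 without Control replicate 2, its highest Control library.

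Actb, the beta-actin gene that is widely used as a reference transcript, had 308, 228 and 327 CPM in Lsd1 KO, against 252, 195 and 213 CPM in Control. The groups overlapped, because Lsd1 KO replicate 2 lay below Control replicate 1. The means were 288 ± 52.4 CPM in Lsd1 KO, against 220 ± 29.0 CPM in Control, and the log2 fold change was 0.39 ± 0.19 (SE). A larger absolute log2 fold change was seen in 55.9% of genes tested. Actb lies on mm9 chromosome 5 from 143664794 to 143668433.

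Actg1, the gamma cytoplasmic actin, had 203, 252 and 229 CPM in Lsd1 KO, against 247, 249 and 103 CPM in Control. Control replicate 3 was low and the groups overlapped, with the other 2 Control libraries inside the Lsd1 KO range. The means were 228 ± 24.7 CPM in Lsd1 KO, against 200 ± 84.0 CPM in Control, with a log2 fold change of 0.19 ± 0.28 (SE), smaller in size than that of 77.3% of genes tested. Without Control replicate 3 the sign turned, to -0.14. Actg1 lies on mm9 chromosome 11 from 120207004 to 120209856, where the annotation also places a microRNA model within it on the same strand.

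Acta2, the smooth muscle alpha-actin, had 5, 0 and 13 counts in Lsd1 KO replicates 1 to 3, against 0, 1 and 0 in Control replicates 1 to 3. The groups overlapped, since Lsd1 KO replicate 2 had no count of it. Summed over libraries, 18 counts against 1 gave a ratio of 18.2 with an exact 95% interval of 2.88 to 760, which covers counting error only and not the spread between libraries. Actc1, the cardiac isoform, had no count in Lsd1 KO, against 23, 0 and 0 in Control replicates 1 to 3. All of its counts thus came from 1 Control library. Acta1, the skeletal isoform, had no count in Lsd1 KO, and 1, 0 and 0 in Control. A library with no count allows up to 0.226 to 0.277 CPM (3 counts, the range over the 6 libraries), and Acta1 lay below that in all of them. The annotation places the span of a gene model on the opposite strand over Acta1 and that of another over Actc1. Neither model is among the genes counted, and the overlap of exons was not examined. The labels do not say whether strand was used, and whether any reads are shared was not tested.

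**Figure D2:**
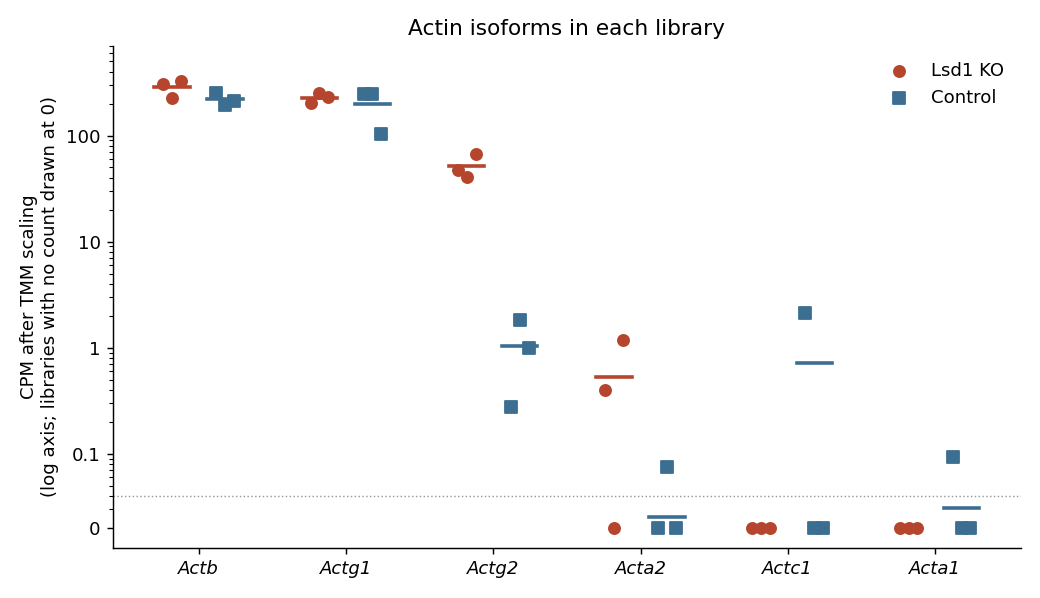
Level of each actin isoform in every library, in CPM on a log axis, with points for libraries, bars for group means and libraries with no count drawn at 0. For Actg2 each Lsd1 KO library lies within 40.9 to 67.7 CPM, against 0.277 to 1.81 CPM in Control, while for Actb and Actg1 the groups overlap.

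Between isoforms, levels were set side by side per kilobase of annotated exon, since the genes differ in length. The length was that of all annotated exons together: 2679 bases for Actb, 2658 for Actg1 and 1562 for Actg2. Their main coding transcripts have 1920, 1952 and 1333 bases. The cytoplasmic isoforms are thus divided by relatively longer lengths, which raises the per-kilobase share of the muscle isoforms. In Lsd1 KO, Actb (107 ± 19.6 CPM per kilobase, SD) and Actg1 (85.7 ± 9.28) did not differ beyond their spread. Actg2 came next at 33.2 ± 8.99, and its highest library (43.3) lay below the lowest library of Actg1 (76.2). Acta2 followed at 0.293 ± 0.333, with Actc1 and Acta1 at 0. In Control, Actb (82.1 ± 10.8) and Actg1 (75.1 ± 31.6) again overlapped. Actg2 (0.657 ± 0.490) and Actc1 (0.438 ± 0.759) also overlapped in Control, where Actc1 was at 0 in replicates 2 and 3. Acta1 (0.0213) and Acta2 (0.0141) rested on 1 count each, and these 3 had no stable order across the Control libraries.

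The makeup of the actin transcripts differed accordingly. Actg2 took 13.6%, 12.7% and 17.2% of the summed actin level per kilobase in Lsd1 KO replicates 1 to 3, against 0.0942%, 0.69% and 0.536% in Control replicates 1 to 3. By raw counts, the share was 8.43% (95% Wilson interval 7.80% to 9.11%), 7.85% (7.18% to 8.57%) and 10.8% (10.1% to 11.6%) in Lsd1 KO. In Control it was 0.0553% (0.0188% to 0.163%), 0.405% (0.272% to 0.602%) and 0.314% (0.175% to 0.561%). The intervals cover counting error only, as the cDNA was amplified and the labels name no molecular identifiers.

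Summed over the 4 muscle isoforms, the level per kilobase was 17.2 ± 3.48% of the cytoplasmic sum in Lsd1 KO and 0.697 ± 0.148% in Control (SD, n = 3 each). Without division by length it was 10.1 ± 2.06% in Lsd1 KO and 0.413 ± 0.093% in Control. The cytoplasmic sum includes Actg1, whose level is uncertain. The muscle sum rested almost wholly on Actg2 in Lsd1 KO (33.2 of 33.5 CPM per kilobase on average), whereas in Control replicate 1 most of it was Actc1 (1.31 of 1.56). Acta1 and Actc1 had counts in Control alone. The mean log2 ratio was 4.63 higher in Lsd1 KO, and 4.45 to 4.77 higher with any single library left out. The muscle sum was 26.2 to 44.0 CPM per kilobase in Lsd1 KO and 0.636 to 1.56 in Control. The cytoplasmic sum was 180 to 208 in Lsd1 KO and 118 to 187 in Control, so its groups overlapped. All 6 isoforms together reached 206 to 252 CPM per kilobase in Lsd1 KO and 119 to 189 in Control. The ratio of Actb to Actg1 per kilobase was 1.51, 0.898 and 1.42 in Lsd1 KO, against 1.01, 0.778 and 2.06 in Control, and the Control range enclosed that of Lsd1 KO.

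**Figure D3:**
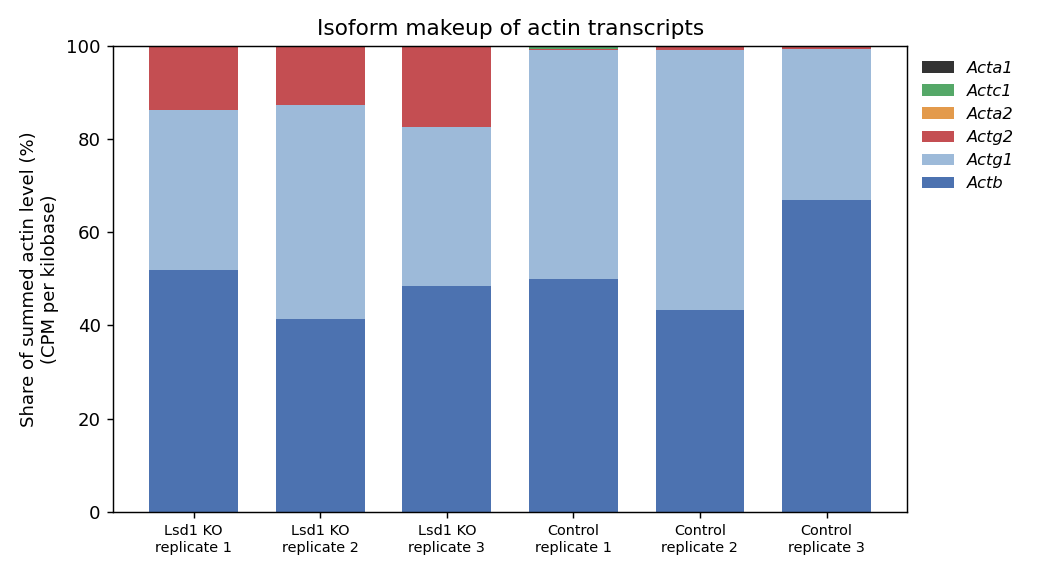
Makeup of the actin transcripts in each library, as the share (%) of the summed actin level in CPM per kilobase. Actg2 takes 12.7% to 17.2% in the 3 Lsd1 KO libraries and 0.0942% to 0.69% in the 3 Control libraries.

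Promoter sequences were read for the isoforms that the RefSeq promoter table holds, which are Actg1, Acta1, Actc1 and Acta2 (build GRCm38.p6). The 250 bases before the start of the gene were searched on both strands for the CArG box, a 10-base motif that reads alike on either strand. Only exact matches were counted: CC, then A or T alone, then GG. An exact match was found in 3 of the 4 isoforms and in 1.47% of all 32851 windows of that length in the table. The window of Acta2 held none, but it holds near matches (ccctatatgg and ccttgtttgg), so a CArG-like element is not excluded there. The 100 bases before the start are shown for the 3 that hold it, 5′ to 3′ with the box in capitals, because Actg1 was abundant in the oocytes and Acta1 and Actc1 were at or near 0.
Actg1 (chr11:120348496-120348595, minus strand): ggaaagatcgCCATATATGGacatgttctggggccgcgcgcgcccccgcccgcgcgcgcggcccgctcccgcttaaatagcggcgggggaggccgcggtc
Acta1 (chr8:123894776-123894875, minus strand): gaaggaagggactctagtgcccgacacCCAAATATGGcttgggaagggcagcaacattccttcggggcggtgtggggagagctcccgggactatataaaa
Actc1 (chr2:114052876-114052975, minus strand): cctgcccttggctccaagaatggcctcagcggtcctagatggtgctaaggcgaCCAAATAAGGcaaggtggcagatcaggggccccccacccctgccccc

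The box began 90, 73 and 47 bases before the start of Actg1, Acta1 and Actc1. A match is a description of the letters and does not show that SRF binds there. Srf, the gene of the factor itself, did not pass the test (52.1 ± 6.23 CPM in Lsd1 KO, against 69.1 ± 33.5 CPM in Control, edgeR adjusted p = 0.353). Among its cofactors, Mkl2, which carries the actin signal to SRF, fell to 182, 168 and 159 CPM in Lsd1 KO, against 243, 320 and 274 CPM in Control, with no overlap. Its log2 fold change was -0.72 ± 0.17 (adjusted p = 0.0119), and the call was lost when Control replicate 2 or Lsd1 KO replicate 3 was left out (adjusted p = 0.061 and 0.0617). Its relative Mkl1 was at 43.4 ± 7.20 CPM in Lsd1 KO, against 65.7 ± 17.6 CPM in Control (adjusted p = 0.0804), and passed only without Control replicate 1 (adjusted p = 0.0244). Myocd, the cofactor of smooth and cardiac muscle, was at 24.5, 2.98 and 7.45 CPM in Lsd1 KO, against 5.73, 6.40 and 13.2 CPM in Control, and did not pass (log2 0.47 ± 0.59, adjusted p = 0.612). Its sign turned without Lsd1 KO replicate 1 (-0.66).

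Over the whole list of SRF, its cofactors and cytoskeletal targets, 24 genes were tested, none was higher and 3 were lower by edgeR (12.5% called, against 21.3% of all genes tested, 10.3% as lower). At an unadjusted p under 0.05, 1 was higher and 5 were lower, and limma-voom also called none higher, while DESeq2 called 1. The median log2 fold change was -0.038, against -0.013 over all genes tested. The list summed to 672 to 740 CPM in Lsd1 KO, against 788 to 932 CPM in Control. Beside Mkl2, Tpm4, a cytoplasmic tropomyosin, fell to 20.3 ± 3.48 CPM in Lsd1 KO, against 35.2 ± 5.32 CPM in Control (log2 -0.79 ± 0.22, edgeR adjusted p = 0.0207). Scai, a repressor of the SRF cofactors, fell to 20.9 ± 3.28 CPM in Lsd1 KO, against 32.1 ± 2.01 CPM in Control (adjusted p = 0.0480). Scai lost the call in 5 of the 6 fits with a library left out (all but that without Control replicate 3, adjusted p up to 0.224) and with 5 of the other settings. Tpm4 lost it without Lsd1 KO replicate 1 or 3 or Control replicate 1 or 2. With Lsd1 KO replicate 1 or 3 left out 1 gene was lower, and with Control replicate 2 left out none. The most abundant members were Mkl2 and Myh9, a non-muscle myosin at 112 to 133 CPM in Lsd1 KO, against 100 to 122 CPM in Control (adjusted p = 0.583).

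The actin-related and actin-like proteins, relatives that nucleate filaments or sit in dynactin and chromatin remodellers, gave 10 genes tested, none higher and 2 lower (20% called, against 21.3% of all genes). At an unadjusted p under 0.05, 1 was higher and 3 were lower, and DESeq2 and limma-voom called none higher. The median log2 fold change was -0.36. Actr1b, a subunit of dynactin, fell to 5.85 ± 1.35 CPM in Lsd1 KO, against 12.7 ± 0.320 CPM in Control (log2 -1.12 ± 0.30, edgeR adjusted p = 0.0190). Actl6a, an actin-like subunit of chromatin remodellers, fell to 23.3 ± 2.39 CPM in Lsd1 KO, against 39.7 ± 7.37 CPM in Control (-0.77 ± 0.21, adjusted p = 0.0208). Leaving out Lsd1 KO replicate 3 left no gene lower, and leaving out any other library but Control replicate 3 left 1. The filament-nucleating pair Actr2 and Actr3, the most abundant of the list, were at 246 ± 23.0 and 209 ± 18.4 CPM in Lsd1 KO, and at 218 ± 28.2 and 183 ± 9.56 CPM in Control. Neither passed (adjusted p = 0.499 and 0.436).

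Of the genes that bind actin monomers or turn filaments over, 20 were tested, 3 were higher and 3 lower (30% called, against 21.3% of all genes), with a median log2 fold change of -0.027. Limk2, a kinase that inactivates cofilin, rose to 126, 113 and 114 CPM in Lsd1 KO, against 64.1, 69.8 and 70.9 CPM in Control (log2 0.78 ± 0.16, edgeR adjusted p = 0.00602). Coro1c, a coronin that binds filaments, rose to 121, 143 and 119 CPM in Lsd1 KO, against 52.2, 84.3 and 49.0 CPM in Control (1.04 ± 0.22, adjusted p = 0.00622). In both genes the groups did not overlap, and the call held with each library left out. Tmsb10, which sequesters actin monomers, fell to 177, 191 and 199 CPM in Lsd1 KO, against 591, 322 and 272 CPM in Control (-1.06 ± 0.26, adjusted p = 0.0118). It lost the call without Lsd1 KO replicate 1 (adjusted p = 0.0582). Control replicate 1 held the highest Tmsb10 level. The other calls, named after their values were seen, were the capping protein Capg (2.53), higher, and the filament disassembly factors Wdr1 (-0.70) and Dstn (-0.56), lower, each with its log2 fold change in brackets. Capg lost the call in 3 of the 6 fits with a library left out (log2 1.87 without Lsd1 KO replicate 3), Wdr1 in 2 and Dstn in 4. With Lsd1 KO replicate 1 left out no gene was lower, and with Lsd1 KO replicate 3 left out 1 was. Cfl2, a cofilin and with Tmsb10 the most abundant member, was at 334 ± 41.4 CPM in Lsd1 KO, against 331 ± 28.2 CPM in Control.

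Genes that fold and modify actin, mainly the CCT chaperonin and prefoldin, gave no call among 18 tested, by edgeR, DESeq2 or limma-voom. At an unadjusted p under 0.05, none was higher and 1 was lower. The median log2 fold change was -0.08, and the summed level was 1810 to 1843 CPM in Lsd1 KO, against 1650 to 2084 CPM in Control. The most abundant, the prefoldin subunits Pfdn4 and Pfdn5, were at 309 ± 18.8 and 258 ± 11.1 CPM in Lsd1 KO, and at 338 ± 62.8 and 224 ± 62.7 CPM in Control (edgeR adjusted p = 0.650 and 0.517). Without Control replicate 3, 2 genes of this list passed as lower.

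**Figure D4:**
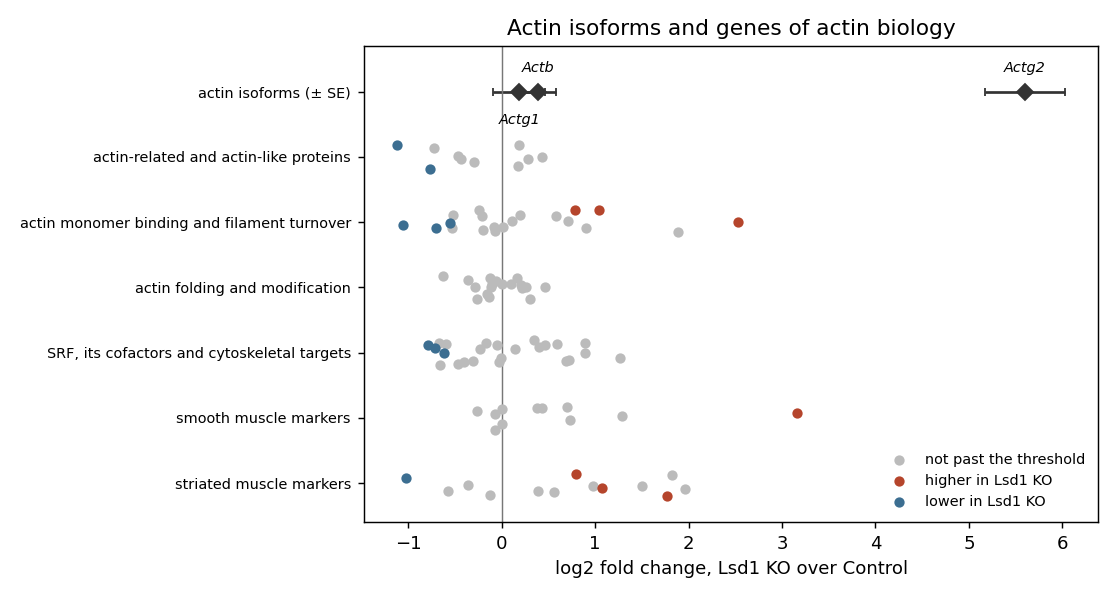
Log2 fold change, Lsd1 KO over Control, of the 3 actin isoforms tested (diamonds, ± SE) and of each tested gene in 6 lists of actin and muscle genes (points, coloured by an edgeR adjusted p of 0.05). Actg2 lies at 5.60, beyond every gene of the 6 lists, of which the highest is the tropomyosin Tpm2 at 3.16.

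Smooth muscle markers were read beside Actg2 and Acta2. Of 22 markers, 11 were tested, 1 was higher and none lower (9.09% called, against 21.3% of all genes tested, 11% as higher), with 3 higher and none lower at an unadjusted p under 0.05. DESeq2 and limma-voom called 2 higher and none lower. The median log2 fold change of the list was 0.38. The gene that edgeR called was Tpm2, a muscle tropomyosin that lies along the actin filament, at 39.4, 15.8 and 36.8 CPM in Lsd1 KO, against 4.25, 4.59 and 1.35 CPM in Control. Its groups did not overlap (log2 3.16 ± 0.45, edgeR adjusted p = 7.22e-04), and the call held with each library left out. The tropomyosin Tpm1 was at 26.6 ± 5.73 CPM in Lsd1 KO, against 28.0 ± 5.68 CPM in Control (adjusted p = 0.853).

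The smooth muscle markers below the filter were at low levels in both groups. Tagln, an actin-binding protein of smooth muscle, was at 0.962, 0.0902 and 0 CPM in Lsd1 KO, against 0.185, 0.452 and 1.26 CPM in Control. The intermediate filament gene Des was at 0.0299 CPM in Lsd1 KO, against 0.0301 CPM in Control, the light chain Myl9 at 0.12 and 0 CPM, and Ppp1r14a and Rgs5 had no count. Means were higher in Lsd1 KO for Lmod1 (0.377, against 0 CPM in Control), Smtn (0.672, against 0.305) and Synpo2 (0.43, against 0.283). The same held for Kcnmb1 (0.466, against 0.166), Pln (0.496, against 0.348) and Aoc3 (0.223, against 0), and the groups overlapped in each. Myh11, the smooth muscle myosin, was in contrast at 244, 286 and 272 CPM in Lsd1 KO, against 194, 210 and 213 CPM in Control (edgeR adjusted p = 0.114), and passed with the filter of 10 CPM (adjusted p = 0.044). The calponin Cnn1 was at 19.9 ± 2.03 CPM in Lsd1 KO, against 12.0 ± 2.71 CPM in Control (adjusted p = 0.0580). The whole list summed to 1423 to 1766 CPM in Lsd1 KO, against 1388 to 1692 CPM in Control. Most of that was Nexn, an actin-binding protein at 1003 ± 180 CPM in Lsd1 KO, against 1054 ± 164 CPM in Control.

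Striated muscle markers, read beside Acta1 and Actc1, gave 13 tested of 40, 3 higher and 1 lower (30.8% called, against 21.3% of all genes), and 7 had no count in any library, among them the muscle regulators Myod1, Myog and Myf5. The median log2 fold change of those tested was 0.79. The summed level went the other way, at 575 to 706 CPM in Lsd1 KO, against 867 to 1147 CPM in Control, and most of it was Ttn. Myom2, a protein of the sarcomere M-band, rose to 56.0, 48.3 and 50.1 CPM in Lsd1 KO, against 11.0, 8.44 and 25.9 CPM in Control (log2 1.77 ± 0.34, edgeR adjusted p = 0.00382). Ttn, the giant sarcomere protein titin, fell to 426, 352 and 428 CPM in Lsd1 KO, against 848, 919 and 678 CPM in Control (-1.02 ± 0.18, adjusted p = 0.00270). Both calls held with each library left out, though the log2 fold change of Myom2 was 2.39 without Control replicate 3, its highest Control library. The myosin Myh2 rose (0.79 ± 0.24, adjusted p = 0.0338), as did the troponin Tnni3 (1.07, adjusted p = 0.0352), which is named after its values were seen. Myh2 lost the call without any library but Lsd1 KO replicate 2 or Control replicate 2, and Tnni3 without Lsd1 KO replicate 1 or 3 or Control replicate 2, so that 1 gene was higher without Lsd1 KO replicate 1 or 3. Neb, with Ttn the most abundant, was at 66.2 ± 20.4 CPM in Lsd1 KO, against 98.7 ± 27.7 CPM in Control (adjusted p = 0.126), and passed as lower without Control replicate 3 (adjusted p = 0.042).

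Markers of other cells moved with the genotype in part. Immune markers summed to 353, 57.9 and 278 CPM in Lsd1 KO replicates 1 to 3, and 80.9, 31.4 and 111 CPM in Control replicates 1 to 3, with 3 of 16 tested higher. Of all genes tested, 11% were higher and 10.3% lower, and these shares stand beside each count of this paragraph. The immune number was 8 with no filter on low counts, 10 without Lsd1 KO replicate 2, 5 without Control replicate 3, and 1 without Lsd1 KO replicate 1 or Control replicate 1 or 2. Actg2 was at 40.9 CPM in Lsd1 KO replicate 2, the library with the lowest immune sum of its group, below that of Control replicates 1 and 3. Acta2 was counted in Lsd1 KO replicates 1 and 3, which had the higher immune sums, and not in replicate 2. In Control the only count of Acta2 was in replicate 2, which had the lowest immune sum, and 1 count gives no order. Whether Actg2 or Acta2 follows the immune sum was not tested. Granulosa and cumulus markers summed to 702 to 802 CPM in Lsd1 KO, against 349 to 433 CPM in Control, with 4 of 15 higher and 1 lower, and 2 higher without Lsd1 KO replicate 3 or Control replicate 2. The aromatase Cyp19a1 made up much of that gap, at 324 ± 82.8 CPM in Lsd1 KO, against 36.8 ± 11.0 CPM in Control (edgeR adjusted p = 1.78e-05). Serpine2, the other most abundant member, did not pass (273 ± 23.9 CPM in Lsd1 KO, against 238 ± 27.0 CPM in Control, adjusted p = 0.442). Ptgs2 was higher (18.7 CPM in Lsd1 KO, against 1.83 CPM in Control) and Nr5a2 was the gene called lower (28.7 CPM, against 69.4 CPM). Theca and stroma markers summed to 21.1 to 65.9 CPM in Lsd1 KO, against 13.1 to 20.4 CPM in Control. Of these, 1 of 5 was higher (5 with no filter, none with the filter of 10 CPM, and 3 without Lsd1 KO replicate 2), the matrix protein Dcn at 7.57 ± 0.386 CPM in Lsd1 KO, against 0.414 ± 0.169 CPM in Control (adjusted p = 1.92e-04). Blood and endothelial markers summed to 106 to 122 CPM in Lsd1 KO, against 71.5 to 89.5 CPM in Control, with 1 of 4 higher (none without Lsd1 KO replicate 1 or 3 or Control replicate 1 or 3) and 4 globin genes at 0. The median log2 fold change of the genes tested was 1.76 for immune, 1.36 for granulosa and cumulus, 1.23 for theca and stroma, and 0.59 for blood and endothelial markers. The part of these cells in the levels of the actin isoforms was not tested.

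The genes on either side of the actin genes were read for shared changes. Actg2 lies 5936 bases from Dguok, a mitochondrial deoxynucleoside kinase at 33.4 ± 3.87 CPM in Lsd1 KO, against 30.6 ± 6.88 CPM in Control (edgeR adjusted p = 0.716). On its other side, 6941 bases away, the deubiquitinase gene Stambp fell to 14.4 to 18.2 CPM in Lsd1 KO, against 26.5 to 34.7 CPM in Control (log2 -0.88 ± 0.22, adjusted p = 0.0130). Stambp lost the call without Lsd1 KO replicate 3 (adjusted p = 0.0669). Neither flanking gene passed the test as higher in Lsd1 KO. Beside Actb, Fscn1, which bundles actin filaments, was at 14.4, 8.84 and 14.0 CPM in Lsd1 KO, against 3.98, 2.11 and 10.2 CPM in Control. Fscn1 did not pass (adjusted p = 0.0941), but did so without Control replicate 3 (adjusted p = 0.0065) and in 4 other settings, among them DESeq2 (adjusted p = 0.0467) and limma-voom (adjusted p = 0.0361). Fbxl18, on the other side of Actb, was at 1.42 CPM in Lsd1 KO, against 1.88 CPM in Control (adjusted p = 0.656).

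Beside Actc1, Aqr, a splicing helicase, rose to 112 ± 14.6 CPM in Lsd1 KO, against 66.5 ± 3.69 CPM in Control (log2 0.75 ± 0.17, edgeR adjusted p = 0.00995). Arhgap11a, on its other side, was at 125 ± 17.4 CPM in Lsd1 KO, against 140 ± 27.0 CPM in Control. The neighbours of Acta1, Nup133 and 1700054N08Rik, and those of Actg1, Bahcc1 and 0610009L18Rik, did not pass (adjusted p from 0.101 to 0.763). Stambpl1, next to Acta2, did not pass (1.42 CPM in Lsd1 KO, against 0.734 CPM in Control), and Fas was below the filter.

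The genes with a profile most like that of each tested isoform were taken by the root mean square distance of centred log2 CPM over the 6 libraries, among 12681 genes with a mean of at least 1 CPM. Genotype is part of that profile. Nearest to Actg2 were Trim6, a ubiquitin ligase (distance 0.715), Fxyd4, a regulator of the sodium pump (0.738), and the alpha-tubulin Tuba1a (0.751). Tuba1a was at 27.7 to 55.7 CPM in Lsd1 KO, against 0.723 to 1.21 CPM in Control. Nearest to Actb was Rps15a, a ribosomal protein gene at 426 ± 75.2 CPM in Lsd1 KO, against 328 ± 43.1 CPM in Control (distance 0.0373), followed by Mtcp1 (0.0588) and Reep3 (0.0638). Nearest to Actg1 were Rabac1 (0.0857), Tcn2, a vitamin B12 carrier (0.0942), and the adaptor Nck2 (0.0974), each low in Control replicate 3 as Actg1 was. The distances of Actg2 were larger than those of Actb and Actg1. Only 8 genes tested had a larger log2 fold change than Actg2, so few genes could lie near it. Nothing is therefore read from its larger distances.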

How the data were processed

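Raw counts per gene symbol were deposited by the authors, 1 column per sample, and were whole numbers in all 6 files. Listed in the submitters' processing notes are TopHat2 2.0.7, HTSeq 0.5.3p9, CASAVA 1.8.2 and, as genome, mm9. The labels give neither tool options nor the annotation, read length or strand setting of the counting. Per the labels, lysed oocytes were amplified with the NuGEN Ovation system and made into paired-end TruSeq libraries.

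After edgeR's low-count filter (filterByExpr, minimum count 10) and TMM scaling, the genotypes were compared in edgeR 4.0.16 on R 4.3.3 by its two-sided quasi-likelihood F test, with Benjamini-Hochberg adjustment over 12935 genes and a threshold of 0.05. The test was tried on simulated data. SEs were derived from the fold change and the test statistic. The series design gives 3 biological replicates per genotype, taken as independent. Positions and exon lengths are from GENCODE M1 (NCBIM37, the assembly of mm9). Log2 CPM used a prior count of 2. Shares have 95% Wilson intervals.

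The isoforms and the 11 gene lists (241 entries, 233 matched by symbol) were chosen with earlier results of these data known. Named were the isoforms, their neighbours, SRF and its cofactors, Kdm1a, the 3 nearest profiles, and in lists of actin and muscle genes the 2 most abundant members and at most 3 that passed, by adjusted p. Outside that rule, Tpm1, Cnn1, the smooth muscle markers below the filter, Capg, Wdr1, Dstn, Tnni3, Myod1, Myog and Myf5 were also named. In lists of other cells, save that of granulosa and cumulus markers, fewer were named. Alternatives were other scalings, DESeq2 1.42.0, limma-voom (limma 3.58.1), other filters, a replicate block and each library left out. Files were read with Python 3.11.15.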

Additional observations from a re-analysis of the deposited data

How the results depend on the processing

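Over the 14 alternatives, the log2 fold change ran from 0.31 to 0.51 for Actb, -0.14 to 0.39 for Actg1 and 5.15 to 6.33 for Actg2. The muscle to cytoplasmic difference was 4.61 without division by length. Over all genes, 1421 were higher and 1329 lower. Leaving out 1 library gave 932 to 1466 higher and 638 to 1346 lower. The labels number the replicates 1 to 3 in both groups, but same-numbered libraries did not deviate together (r = -0.029, 0.111 and -0.021). Not every library correlated best with its own number either. With 3 libraries per group, these correlations cannot exclude that same-numbered libraries were handled together, so pairing was not settled. The immune sum was lowest in replicate 2 of both groups, but highest in replicate 1 of Lsd1 KO and replicate 3 of Control. With the replicate block, 1270 were higher and 1098 lower, and 8 immune markers were higher. Upper-quartile scaling gave 1534 higher and 1188 lower, and no scaling or test moved the median of all genes by 0.1. DESeq2's Wald test and the fit with no filter each called 1 gene of the SRF list higher. Smooth muscle markers had 2 higher with DESeq2's Wald test and with limma-voom, and 3 with the filter of 10 CPM in 3 libraries. That filter also called 1 actin-related gene higher, and no filter called 1 folding gene lower. With a library left out, the calls ran from 0 to 2 lower for actin-related genes, 2 to 4 higher and 0 to 4 lower for monomer and turnover genes, 0 to 2 lower for folding genes, 0 to 1 higher and 0 to 3 lower for the SRF list, 1 to 2 higher for smooth muscle markers, and 1 to 3 higher and 1 to 2 lower for striated muscle markers. The causes were not tested. No alternative reversed a called direction. Depth limits Acta1, Acta2 and Actc1, which were not tested because their counts were too few.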
